A study of Mus musculus with 11 samples.

Results

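The 38 genes described here encode enzymes of glycolysis, of the fate of pyruvate, of the pentose phosphate pathway, of serine synthesis and of the folate one-carbon cycle. They were taken by symbol from a fixed list of members, and all 38 were found among the 23071 gene identifiers of the deposited expression table. By branch, 12 belong to upper glycolysis, 7 to lower glycolysis, 4 to the fate of pyruvate, 7 to the pentose phosphate pathway, 3 to serine synthesis and 5 to folate metabolism. The list was not chosen by measured values of these libraries, although earlier results from them were known when it was drawn up.

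RNA of 11 samples from C57BL/6 mice was sequenced. Wild-type progenitor B cells (3 libraries, from pools of 3, 7 and 6 mice) and Ebf1+/- progenitor B cells (3 libraries, from pools of 3, 6 and 7 mice) were purified on columns from bone marrow. The 5 leukemias came from Pax5+/- x Ebf1+/- mice, 1 mouse per library, as lymph node cell suspensions that were flash frozen. Ebf1 heterozygosity is therefore shared by the Ebf1 heterozygous pools and the leukemias, and none of the 11 libraries analysed here had Pax5 heterozygosity alone or came from Pax5+/- x Ebf1+/- mice without leukemia. The labels used here give neither the age of the mice nor how the alleles were made. Leukemia, genotype, tissue, purification, freezing and pooling change together between the progenitor pools and the leukemias, and their shares in a difference cannot be told apart. The alignment tools listed for the Ebf1 heterozygous samples differ from those of the other groups, so, as listed, alignment also changes in both comparisons with these pools.

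Glycolysis splits glucose into pyruvate in the cytosol, and lactate dehydrogenase can turn the pyruvate into lactate while pyruvate dehydrogenase carries it into the mitochondrial citric acid cycle. The pentose phosphate pathway branches off at glucose 6-phosphate: its oxidative arm yields NADPH and pentose phosphate, and its non-oxidative arm moves carbon between pentoses and glycolytic sugars. Serine synthesis branches off at 3-phosphoglycerate, and serine feeds carbon units to folate, which carries them to purine and thymidylate synthesis. Developing B cells divide rapidly at the pre-B stage, and dividing lymphocytes are known to draw on all of these routes.

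Values are FPKM, fragments scaled to the length of the gene and to the size of the library. Levels, sums and ratios of different genes are therefore only approximate. Reads shared with a near-identical copy or an overlapping gene cannot be placed, and their part in the levels was not tested. Library totals ran from 8506680 to 15313920 reads. Fold changes were taken on the log2(FPKM + 1) scale, on which differences between low values come out too small. Tests were made with limma over every gene that averaged 1 FPKM or more across the compared libraries, and a gene was called at an adjusted p under 0.05. As nothing in the labels says more about the replicates than their pools or mice, p-values measure the spread between these libraries. Pax5 means with SD were 222 ± 77.9 FPKM among the wild-type pools (n = 3), 179 ± 83.5 among the Ebf1 heterozygous pools (n = 3) and 119 ± 38.3 in leukemia (n = 5), and Ebf1 means were 99.1 ± 14.3, 71.2 ± 24.1 and 66.6 ± 10.8 in the same order. The summed level of 10 B cell markers was 2935 to 5021 FPKM in wild type, 2091 to 6011 in Ebf1 heterozygous pools and 3409.6 to 4171 in leukemia, but in leukemia against wild type 2 of the 10 were higher (Vpreb1 and Igll1) and 5 lower (Cd24a, Ebf1, Cd79b, Pax5 and Cd2). The sum of 14 granulocyte markers was 629.8 to 3433 FPKM in wild type, 2734 to 10716 in Ebf1 heterozygous pools and 4.06 to 9.5 in leukemia (14 of 14 lower in leukemia, Cebpe at 0 there), and that of 8 megakaryocyte and platelet markers was 75.7 to 458 FPKM in wild type, 140.3 to 4099 in Ebf1 heterozygous pools and 0.382 to 1.33 in leukemia (8 of 8 lower). The sum of 7 monocyte and macrophage markers was 394 to 662 FPKM in wild type, 488 to 2044 in Ebf1 heterozygous pools and 58.3 to 159 in leukemia, and that of 10 erythroid markers was 228 to 1181 FPKM in wild type, 476 to 1188 in Ebf1 heterozygous pools and 57 to 148 in leukemia, with Car1 at 0 in leukemia and the globin genes Hba-a1, Hbb-bt and Hbb-bs at 0 in all 11 libraries. The sum of 9 T cell markers was 36 to 42.3 FPKM in wild type, 44.2 to 68 in Ebf1 heterozygous pools and 59.7 to 131 in leukemia. Of the 8 of these tested, Lck was higher and Zap70 lower in leukemia than in wild type, and 5 had a fold change below 0. The sum of 6 natural killer (NK) cell markers was 15.5 to 21.2 FPKM in wild type, 26.2 to 82.5 in Ebf1 heterozygous pools and 14.9 to 36.6 in leukemia. Of the 2 NK markers tested in leukemia against wild type, 0 were called. Wild-type pool 2 and Ebf1 heterozygous pool 2 resembled each other (correlation across genes 0.989) more closely than any 2 libraries of 1 group among these pools.

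Of the 38 members, 35 passed the filter and were tested in each comparison. The exceptions were Aldoc, Eno1 and Eno2, whose means stayed below 1 FPKM. In leukemia against wild type, 16 of the 35 were higher, 9 were lower and 10 were not called. That is 71.4% of the members tested, against 44.8% of all 10968 genes tested. The share higher was 45.7% of the members and 20.7% of all genes, and the share lower was 25.7% of the members and 24.1% of all genes. Members had a median log2 fold change of 0.37, and all genes one of -0.036. The values of the 2 groups did not overlap for 24 members (68.6%), against 46.3% of all genes. The most abundant members of wild type by FPKM were Pgls (303 ± 69.7 FPKM), Ldha (234 ± 65.2) and Taldo1 (203 ± 5.77), with Ldha overlapping both of the others in level. Part of the Pgls values may belong to the overlapping gene Fam129c, as described below. In leukemia they were Ldha (504 ± 52.6), Pkm (365 ± 27.4) and Tkt (252 ± 16.7), whose libraries did not overlap. The branches differed in their counts: all 3 serine synthesis genes and 4 of 5 lower glycolysis genes tested were higher and none of these was lower, whereas 4 of 7 pentose phosphate genes were lower and 1 was higher.

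**Figure D1:**
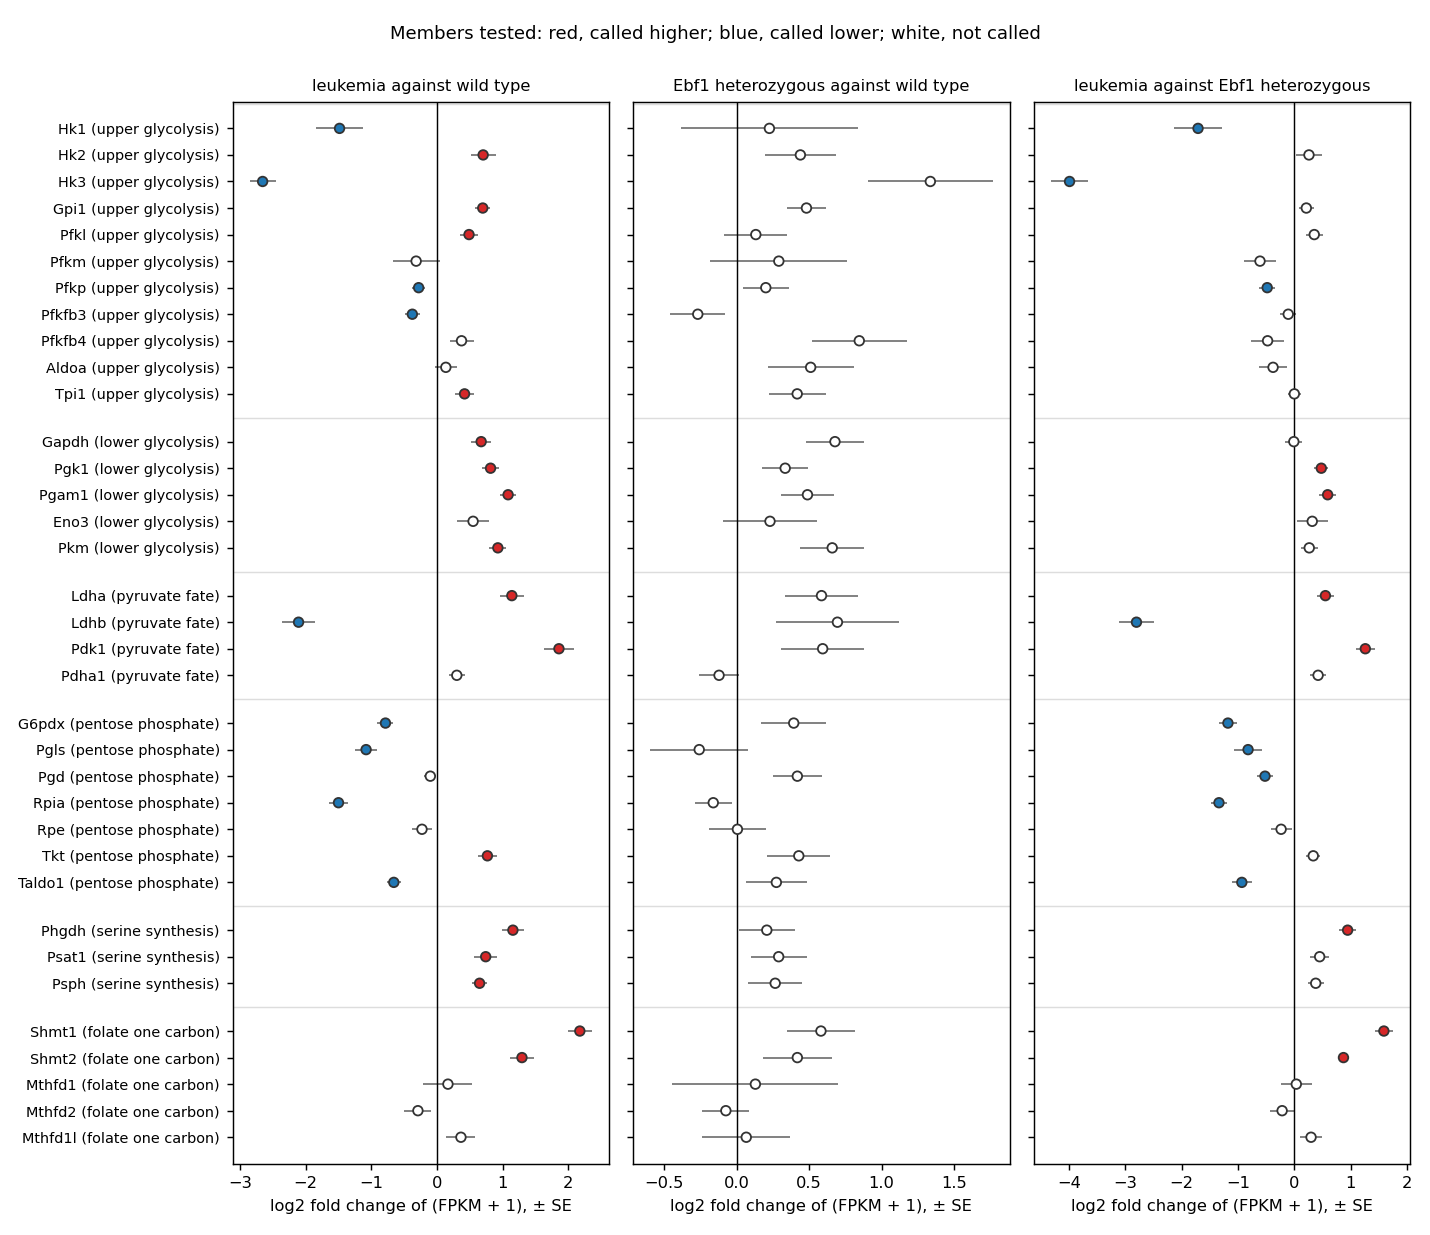
Log2 fold changes of the 35 tested members on the log2(FPKM + 1) scale (x axis, with a different range in each panel; bars are the standard error from limma), grouped by branch on the y axis, for each of the 3 comparisons. Filled points passed an adjusted p under 0.05: 25 in leukemia against wild type, 0 in Ebf1 heterozygous against wild type and 16 in leukemia against Ebf1 heterozygous pools.

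In upper glycolysis, 4 genes were higher in leukemia than in wild type, 4 lower and 3 not called among 11 tested. That is 36.4% in each direction, against 20.7% higher and 24.1% lower of all genes. Hexokinases trap glucose in the cell as glucose 6-phosphate, and the 3 measured forms moved in different directions. Hk1 (chromosome 10, 62268855 to 62379908, GRCm38), the widely expressed form that binds mitochondria, stood at 22.2, 43.6 and 74.8 FPKM in the wild-type pools, 23.8, 45.6 and 108 in the Ebf1 heterozygous pools and 17, 11.3, 14.8, 20.8 and 9.97 in the leukemias. Every leukemia lay below every pool of progenitors, and the pools themselves spread widely. Hk1 fell against wild type (limma log2 fold change -1.48 with SE 0.36 and adjusted p = 0.00943). The order of its levels within the wild-type pools and within the Ebf1 heterozygous pools was also the order of the megakaryocyte and platelet marker sum. That sum was 75.7, 253 and 458 FPKM in the wild-type pools and 140.3, 265 and 4099 in the Ebf1 heterozygous pools. The B cell marker sum had the reverse order in both sets. It was 5021, 4301 and 2935 FPKM in the wild-type pools and 6011, 4537 and 2091 in the Ebf1 heterozygous pools. These orders do not single out a cell type, and the part of any of these cells in the Hk1 difference was not tested.

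Hk2 (chromosome 6, 82725025 to 82774454), the inducible form of proliferating tissues and muscle, stood at 3.4, 3.95 and 4.76 FPKM in the wild-type pools, 4.57, 4.98 and 8.37 in the Ebf1 heterozygous pools and 7, 8.74, 4.67, 7.32 and 8.74 in the leukemias. Leukemia 3 lay just below wild-type pool 3, and the other 4 leukemias lay above every wild-type pool. Hk2 rose against wild type (limma log2 fold change 0.70 with SE 0.19 and adjusted p = 0.0163), and the call was lost without wild-type pool 1 (0.0649) or wild-type pool 2 (0.0525) (limma adjusted p in parentheses). Hk3 (chromosome 13, 55005985 to 55021385), the form of myeloid cells, stood at 8.16, 4.77 and 5.4 FPKM in the wild-type pools, 18.7, 8.21 and 29 in the Ebf1 heterozygous pools and 0.216, 0.0934, 0.0986, 0.0473 and 0.0854 in the leukemias. The leukemias were near 0 throughout, with 6, 4, 4, 2 and 4 reads, and did not overlap with either set of pools. Hk3 fell against wild type (limma log2 fold change -2.66 with SE 0.20 and adjusted p = 3.14e-05). Relative to library totals, wild type held 60.3 (95% interval 38.8 to 99.3) times as many Hk3 reads as leukemia, an exact interval that covers counting error only. The granulocyte marker sums given above moved in the same direction as Hk3, and their part in it was not tested. In such bulk samples, fewer cells of a type and less RNA per cell cannot be told apart.

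Among the 3 hexokinases the total level was 57 ± 25.9 FPKM in wild type, 83.7 ± 53.6 in the Ebf1 heterozygous pools and 22.2 ± 3.95 among the leukemias (SD, n = 3, 3 and 5). The Hk2 share of that total was 10.1, 7.55 and 5.6% in the wild-type pools, 9.72, 8.48 and 5.77% in the Ebf1 heterozygous pools and 28.9, 43.3, 23.8, 26 and 46.5% in the leukemias. The smallest Hk2 share among the leukemias exceeded the largest among the pools. Hk1 remained the most abundant hexokinase in all 11 libraries, at 50.5% to 88.0% of the total. The Hk3 share was highest in Ebf1 heterozygous pool 1, at 39.8%, and at most 0.891% in leukemia.

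Glucose 6-phosphate isomerase, Gpi1 (chromosome 7, 34201330 to 34230336), which makes fructose 6-phosphate, stood at 125, 133 and 120.1 FPKM in the wild-type pools, 181, 164 and 184 in the Ebf1 heterozygous pools and 222, 169, 200.2, 240.2 and 198 in the leukemias. All leukemias lay above all wild-type pools, and the Ebf1 heterozygous pools lay between them or within the leukemia range. Gpi1 rose against wild type (limma log2 fold change 0.70 with SE 0.12 and adjusted p = 0.0017). Phosphofructokinase catalyses the committed step, and its liver form Pfkl (chromosome 10, 77986947 to 78010083) stood at 17.4, 22.6 and 26.2 FPKM in the wild-type pools, 19.2, 24.2 and 29.5 in the Ebf1 heterozygous pools and 34.1, 28.7, 28.2, 35.8 and 28.7 in the leukemias. Each leukemia exceeded each wild-type pool, while Ebf1 heterozygous pool 3 lay among the leukemias. Pfkl rose against wild type (limma log2 fold change 0.49 with SE 0.14 and adjusted p = 0.0214), a call lost without wild-type pool 1 (0.0759) or wild-type pool 2 (0.0525). The platelet form Pfkp (chromosome 13, 6579768 to 6648777) stood at 13.3, 13.6 and 12.7 FPKM in the wild-type pools, 13.9, 14.1 and 18.3 in the Ebf1 heterozygous pools and 9.72, 11.2, 10.1, 10.2 and 12.4 in the leukemias. The leukemias were lower than all pools by a small margin, and the call against wild type lay at the threshold (limma log2 fold change -0.28 with SE 0.10 and adjusted p = 0.0492). It was lost without wild-type pool 1 (0.108), wild-type pool 2 (0.14), wild-type pool 3 (0.0775), leukemia 1 (0.0961), leukemia 2 (0.0625), leukemia 3 (0.092) or leukemia 4 (0.0834). The muscle form Pfkm averaged 14.2 ± 8.04 FPKM in wild type and 10.2 ± 2.81 in leukemia and was not called (limma adjusted p = 0.494).

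Summed over the 3 phosphofructokinases, the level was 49.4 ± 12.1 FPKM in wild type, 56.2 ± 13.7 in the Ebf1 heterozygous pools and 52 ± 3.35 among the leukemias, so that the total lay in the same range in all groups. The Pfkl share of this sum was 47.2, 44.9 and 42.8% in the wild-type pools, 44.9, 43.4 and 42% in the Ebf1 heterozygous pools and 62.9, 61.9, 54.4, 65.6 and 53.9% in the leukemias. Every leukemia had a larger Pfkl share than every pool. Pfkfb3 and Pfkfb4 make and remove fructose 2,6-bisphosphate, the activator of phosphofructokinase. Pfkfb3, the form with high kinase activity, averaged 27.2 ± 3.94 FPKM in wild type and 20.6 ± 1.81 in leukemia and fell (limma log2 fold change -0.38 with SE 0.12 and adjusted p = 0.0286), a call lost without wild-type pool 1 (0.0985), wild-type pool 2 (0.114), leukemia 1 (0.0565) or leukemia 4 (0.0516) and under quantile or median-ratio scaling. Pfkfb4 averaged 2.44 ± 0.0741 and 3.53 ± 0.844 FPKM and was not called (adjusted p = 0.125 by limma), although it passed without leukemia 2 (0.0222).

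Aldolase splits the sugar bisphosphate. Aldoa, the main form here, averaged 117 ± 18.1 FPKM in the wild-type pools, 175 ± 69.7 in the Ebf1 heterozygous pools and 129.7 ± 23 in leukemia, and was not called against wild type (limma adjusted p = 0.541). Aldoc was at most 1.11 FPKM in any library and made up 0.196% to 0.719% of the aldolase sum. Triose-phosphate isomerase, Tpi1, averaged 128 ± 26.4 FPKM in wild type and 169 ± 12.7 in leukemia and rose (limma log2 fold change 0.42 with SE 0.14 and adjusted p = 0.0358). That call was lost without wild-type pool 1 (0.0985), leukemia 1 (0.0597), leukemia 2 (0.0695) or leukemia 4 (0.0657) and under quantile scaling.

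From glyceraldehyde 3-phosphate onward, 4 of the 5 genes tested were higher in leukemia (80%, against 20.7% of all genes) and none was lower. The branch had a median log2 fold change of 0.82, in contrast to 0.13 in upper glycolysis. Gapdh (chromosome 6, 125161715 to 125166467), the dehydrogenase that yields NADH, stood at 43.1, 63.8 and 49.2 FPKM in the wild-type pools, 99.8, 76.7 and 73.9 in the Ebf1 heterozygous pools and 67.7, 94.5, 77.8, 85.3 and 89 in the leukemias. The leukemias lay above all wild-type pools and within the range of the Ebf1 heterozygous pools, apart from leukemia 1 below it. Gapdh rose against wild type (limma log2 fold change 0.67 with SE 0.15 and adjusted p = 0.00612). Pgk1 (chromosome X, 106187100 to 106203699), which makes the first ATP of the pathway's payoff phase, stood at 112, 146 and 113 FPKM in the wild-type pools, 146, 154 and 164 in the Ebf1 heterozygous pools and 210.2, 262, 212, 207 and 195 in the leukemias. Leukemia 2 was the highest, and no leukemia overlapped with any pool. Pgk1 rose against wild type (limma log2 fold change 0.82 with SE 0.13 and adjusted p = 0.00115).

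Pgam1 (chromosome 19, 41911923 to 41918660), the mutase that moves the phosphate of 3-phosphoglycerate, stood at 35.5, 44.7 and 36.1 FPKM in the wild-type pools, 45.7, 52.9 and 66.9 in the Ebf1 heterozygous pools and 83.9, 99.2, 78.9, 76.2 and 77.5 in the leukemias. Leukemia values were all above those of both sets of pools. Its difference from wild type was the largest of the 5 lower glycolysis genes tested (limma log2 fold change 1.08 with SE 0.12 and adjusted p = 0.000183, a 2.12-fold difference). Pyruvate kinase, Pkm (chromosome 9, 59656368 to 59679375), stood at 195, 229.8 and 156 FPKM in the wild-type pools, 252, 291 and 377 in the Ebf1 heterozygous pools and 370.5, 319, 366, 375 and 393 in the leukemias. All leukemias exceeded all wild-type pools, and Ebf1 heterozygous pool 3 lay among the leukemias. Pkm rose against wild type (limma log2 fold change 0.93 with SE 0.13 and adjusted p = 0.00068). FPKM per gene does not separate the M1 and M2 splice forms of Pkm.

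The enolase step could not be read in the same way. Eno3, the muscle form, averaged 3.73 ± 1.41 FPKM in wild type and 5.88 ± 1.48 in leukemia and was not called (limma adjusted p = 0.098), but passed without wild-type pool 1 (0.0438) or leukemia 5 (0.022). Eno2, the neuronal form, had 0, 0 and 0 reads in the wild-type pools, 4, 1 and 1 in the Ebf1 heterozygous pools and 1, 3, 0, 0 and 3 in the leukemias. Eno1, the form of most tissues, had only 5, 2 and 1 reads, 0, 4 and 2 reads and 5, 3, 0, 2 and 1 reads in the same groups. The table also lists Eno1b, a retrotransposed copy nearly identical to Eno1, at 1.77, 1.66 and 2.16 FPKM in the wild-type pools, 1.3, 2.43 and 3.4 in the Ebf1 heterozygous pools and 3.89, 4.45, 5.36, 5.1 and 4.64 in the leukemias. Reads that match both copies cannot be placed in one of them, so enolase RNA cannot be read from the values of either.

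**Figure D2:**
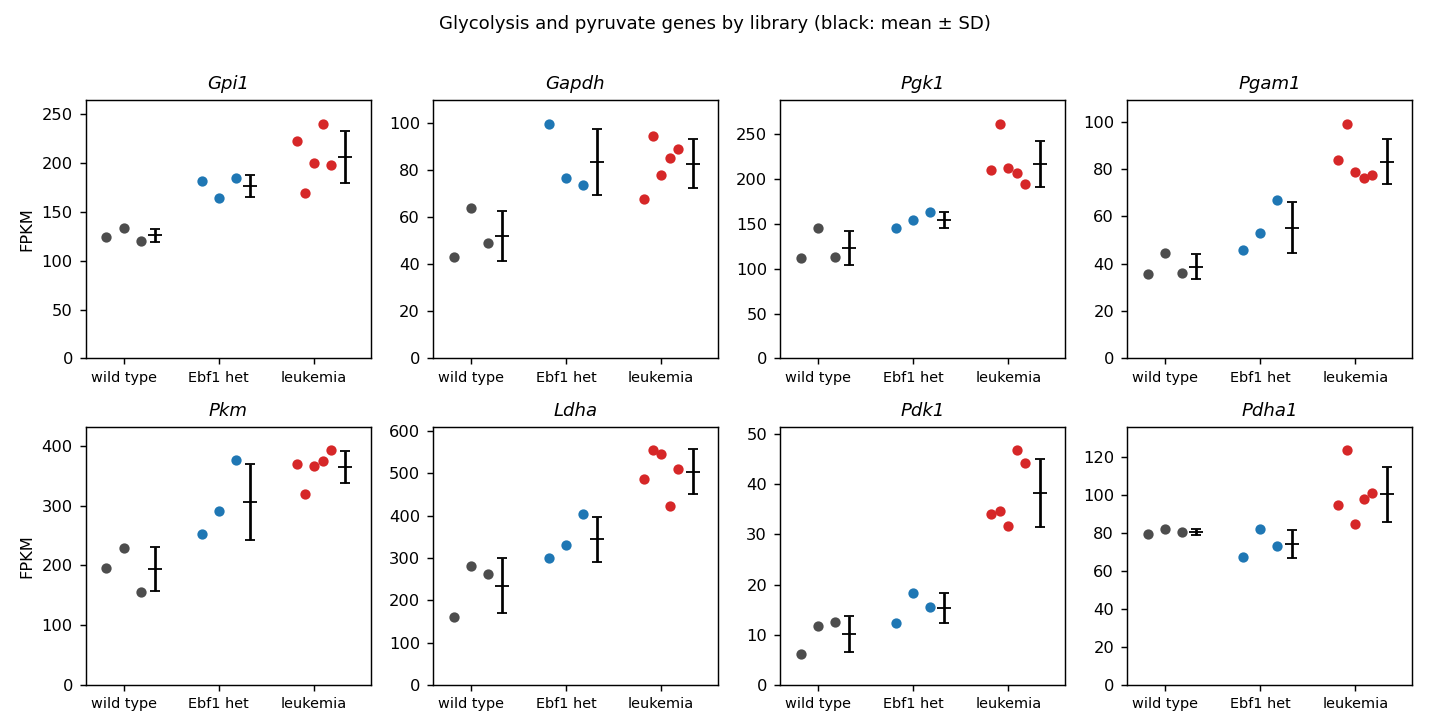
FPKM (y axes, each from 0) of 7 glycolysis and pyruvate genes called higher in leukemia than in wild type and of Pdha1, which was not called, by library. Points are libraries in replicate order within wild type (3), Ebf1 heterozygous (Ebf1 het, 3) and leukemia (5), and black bars are the mean ± SD. The leukemias lie above all progenitor pools for Pgk1, Pgam1, Ldha, Pdk1 and, by a small margin, Pdha1. They overlap with the Ebf1 heterozygous pools for Gpi1, Gapdh and Pkm.

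Pyruvate has competing fates, and the genes at this point moved apart in leukemia. Ldha (chromosome 7, 46841475 to 46855627), the lactate dehydrogenase subunit that favours lactate formation, stood at 159, 279.7 and 263 FPKM in the wild-type pools, 299, 329.8 and 403 in the Ebf1 heterozygous pools and 487, 555, 545, 424 and 509 in the leukemias. It was the most abundant member in leukemia, and no leukemia overlapped with any pool. Ldha rose against wild type (limma log2 fold change 1.14 with SE 0.19 and adjusted p = 0.00134, 2.2-fold). Ldhb (chromosome 6, 142490249 to 142507957), the subunit that favours the reverse reaction, stood at 2.97, 2.59 and 6.24 FPKM in the wild-type pools, 8.51, 3.28 and 9.75 in the Ebf1 heterozygous pools and 0.0901, 0.0585, 0.185, 0.0593 and 0.0535 in the leukemias. The leukemias were near 0 without overlap, with 1, 1, 3, 1 and 1 reads. Ldhb fell against wild type (limma log2 fold change -2.11 with SE 0.25 and adjusted p = 0.000284). Wild type held 47 (95% interval 22.4 to 118) times as many Ldhb reads as leukemia, relative to library totals and from 7 leukemia reads in all.

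Within the lactate dehydrogenase sum, Ldhb made up 0.916% to 2.32% in wild type and at most 0.034% in leukemia, so that Ldha made up nearly all of the sum in every library. Within each set of pools Ldhb was lowest in pool 2 and highest in pool 3. The monocyte and macrophage marker sum was also lowest in pool 2 but highest in pool 1, at 662, 394 and 489 FPKM in the wild-type pools and 2044, 488 and 1080.2 in the Ebf1 heterozygous pools. The part of such cells in the Ldhb difference was not tested. Pdk1 (chromosome 2, 71873224 to 71903858), a kinase that switches off pyruvate dehydrogenase, stood at 6.1, 11.8 and 12.5 FPKM in the wild-type pools, 12.3, 18.3 and 15.5 in the Ebf1 heterozygous pools and 34.1, 34.6, 31.7, 46.8 and 44.1 in the leukemias. Every leukemia lay above every pool, the lowest leukemia at 31.7 and the highest pool at 18.3 FPKM. Pdk1 rose against wild type (limma log2 fold change 1.86 with SE 0.22 and adjusted p = 0.000299, 3.62-fold). Pdha1, the catalytic subunit gene of pyruvate dehydrogenase that Pdk1 acts on, averaged 80.6 ± 1.53 FPKM in wild type and 100.2 ± 14.4 in leukemia. It was not called (limma adjusted p = 0.0641), but passed without leukemia 3 (0.0335) and under quantile or median-ratio scaling. Every leukemia lay above every pool for Pdha1 too, by a small margin, the lowest leukemia at 84.6 and the highest pool at 82.2 FPKM. The ratio of Pdk1 to Pdha1 levels was 0.0771, 0.144 and 0.156 in the wild-type pools, 0.183, 0.222 and 0.212 in the Ebf1 heterozygous pools and 0.361, 0.28, 0.374, 0.478 and 0.438 in the leukemias, higher in each leukemia than in any pool.

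Upstream windows are shown for 5 of the 7 members that were called higher in leukemia against both progenitor groups. Windows of the other two, Phgdh and Shmt1, overlap an annotated exon. Each is the 250 bases before a RefSeq transcription start (build GRCm38.p6), written 5′ to 3′ on the gene's strand, with capitals for ACGTG, the core of the element bound by hypoxia-inducible factors, or for CACGTG, the E-box bound by factors such as Myc, on either strand.
Ldha, chr7:46845554-46845803, plus strand: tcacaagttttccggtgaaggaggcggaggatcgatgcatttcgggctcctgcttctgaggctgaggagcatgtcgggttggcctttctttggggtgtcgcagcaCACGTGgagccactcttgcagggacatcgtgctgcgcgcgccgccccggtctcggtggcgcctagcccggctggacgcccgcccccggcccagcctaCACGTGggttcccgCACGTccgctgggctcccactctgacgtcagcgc
Pgk1, chrX:106186850-106187099, plus strand: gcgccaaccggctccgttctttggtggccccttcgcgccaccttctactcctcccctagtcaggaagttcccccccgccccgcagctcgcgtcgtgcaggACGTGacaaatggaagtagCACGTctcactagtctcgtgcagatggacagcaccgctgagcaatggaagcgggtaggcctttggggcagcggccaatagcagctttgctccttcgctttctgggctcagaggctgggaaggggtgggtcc
Pgam1, chr19:41911621-41911870, plus strand: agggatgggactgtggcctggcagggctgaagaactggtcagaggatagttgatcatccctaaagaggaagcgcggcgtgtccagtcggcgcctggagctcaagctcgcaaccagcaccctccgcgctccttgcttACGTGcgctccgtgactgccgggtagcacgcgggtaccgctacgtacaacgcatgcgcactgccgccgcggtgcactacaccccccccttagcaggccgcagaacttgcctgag
Pdk1, chr2:71872974-71873223, plus strand: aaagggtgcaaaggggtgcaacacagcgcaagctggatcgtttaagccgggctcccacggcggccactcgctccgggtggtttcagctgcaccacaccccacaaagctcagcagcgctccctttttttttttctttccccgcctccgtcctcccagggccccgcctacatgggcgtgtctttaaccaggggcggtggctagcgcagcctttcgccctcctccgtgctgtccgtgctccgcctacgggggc
Shmt2, chr10:127522445-127522694, minus strand: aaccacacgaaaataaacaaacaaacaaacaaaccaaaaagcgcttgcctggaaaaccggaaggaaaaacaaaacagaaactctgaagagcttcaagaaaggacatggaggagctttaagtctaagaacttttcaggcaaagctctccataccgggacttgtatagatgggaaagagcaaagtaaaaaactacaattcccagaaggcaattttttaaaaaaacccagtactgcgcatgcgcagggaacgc
The Ldha window shown held CACGTG at 2 places and ACGTG at 5, 4 of which lie inside the palindromic CACGTG copies and are counted on both strands. A window before another Ldha start (chr7:46846832-46847081) also overlaps no exon and held neither. The Pgk1 window held ACGTG at 2 places and the Pgam1 window at 1, and the Pdk1 and Shmt2 windows held neither. Among 53 windows of the 38 members, ACGTG occurred in 26.4% (11 genes), against 16.6% of 32851 windows of the same length, and CACGTG in 5.7%, against 6.0%. TGATGNAA, the form of the amino acid response element searched, occurred in 0 member windows and in 3.5% of all windows. Of the 11 genes with ACGTG, Aldoa, Mthfd1l and Pfkm were not called in leukemia against wild type, and Hk3 and Pfkfb3 were lower. A match describes letters in the window only.

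The pentose phosphate pathway had more lower than higher genes, with 4 lower, 1 higher and 2 not called among 7 tested. That is 57.1% lower and 14.3% higher, against 24.1% and 20.7% of all genes. G6pdx (chromosome X, 74409483 to 74429194), the dehydrogenase of the committed oxidative step, stood at 27.6, 33 and 38.5 FPKM in the wild-type pools, 43.2, 33.4 and 56.2 in the Ebf1 heterozygous pools and 18.8, 19.6, 16.5, 20.7 and 17.8 in the leukemias. Leukemia values were below those of every pool. G6pdx fell against wild type (limma log2 fold change -0.79 with SE 0.12 and adjusted p = 0.00108). Its exons overlap those of Ikbkg on the opposite strand, and Ikbkg, with means of 8.74 FPKM in the pools of wild type and 8.86 in leukemia, was not called (limma adjusted p = 0.901). The lactonase gene Pgls (chromosome 8, 71592176 to 71601092) stood at 374, 299 and 235 FPKM in the wild-type pools, 393, 235 and 165 in the Ebf1 heterozygous pools and 131, 123, 139.8, 176 and 137 in the leukemias. It was the most abundant member in wild type, and all leukemias lay below all wild-type pools. Pgls fell against wild type (limma log2 fold change -1.08 with SE 0.16 and adjusted p = 0.000971). Exons of Fam129c overlap those of Pgls on the same strand, and Fam129c stood at 284, 122 and 111 FPKM in the wild-type pools, 146, 75.4 and 38.9 in the Ebf1 heterozygous pools and 10.8, 44.8, 20.8, 7.72 and 7.51 in the leukemias. Fam129c was also called lower (limma log2 fold change -3.35 with SE 0.57 and adjusted p = 0.00167), and reads of the shared stretch cannot be told apart, so part of the Pgls values may belong to Fam129c.

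Pgd, the second dehydrogenase of the oxidative arm, averaged 63.8 ± 0.928 FPKM in wild type and 59.5 ± 5.42 in leukemia and was not called (limma adjusted p = 0.398). Rpia (chromosome 6, 70765720 to 70792232), the isomerase that yields ribose 5-phosphate for nucleotides, stood at 80.5, 90.1 and 90.3 FPKM in the wild-type pools, 79.5, 76.8 and 76.2 in the Ebf1 heterozygous pools and 30.2, 36.5, 24, 34.6 and 26.7 in the leukemias. The 6 pools lay within a narrow band, and the leukemias lay far below it. Rpia fell against wild type (limma log2 fold change -1.50 with SE 0.14 and adjusted p = 9.07e-05). The epimerase gene Rpe averaged 25.7 ± 2.78 and 21.9 ± 3.81 FPKM in wild type and leukemia and was not called (limma adjusted p = 0.232).

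Transketolase and transaldolase, the carbon transfer enzymes of the non-oxidative arm, moved in opposite directions. Tkt (chromosome 14, 30548359 to 30574720) stood at 110.5, 167 and 174 FPKM in the wild-type pools, 175, 197 and 227 in the Ebf1 heterozygous pools and 240.4, 265, 249, 273 and 233 in the leukemias. The leukemias lay above every pool. Tkt rose against wild type (limma log2 fold change 0.77 with SE 0.15 and adjusted p = 0.00328). Taldo1 (chromosome 7, 141392199 to 141402968) stood at 208, 197 and 204 FPKM in the wild-type pools, 265, 184 and 304 in the Ebf1 heterozygous pools and 118, 142, 147, 118 and 119.6 in the leukemias. Here all leukemias lay below every pool, and Taldo1 fell against wild type (limma log2 fold change -0.66 with SE 0.10 and adjusted p = 0.00112). The ratio of Tkt to Taldo1 levels was 0.531, 0.847 and 0.85 in the wild-type pools, 0.661, 1.07 and 0.746 in the Ebf1 heterozygous pools and 2.04, 1.87, 1.7, 2.3 and 1.94 in the leukemias. Taldo1 was the more abundant of the pair in all 3 wild-type pools and in 2 of 3 Ebf1 heterozygous pools, and Tkt was the more abundant in all 5 leukemias. Tkt also exceeded Rpia by 1.37 to 1.92 times in wild type and by 7.26 to 10.4 times in leukemia. Of the genes called lower, G6pdx and Taldo1 had their highest means in the Ebf1 heterozygous pools (44.3 and 251 FPKM). The granulocyte marker sum given above also reached its highest values there and its lowest in leukemia. Pgls and Rpia instead had their highest means in wild type. Within the wild-type pools G6pdx rose from pool 1 to pool 3 while the granulocyte sum fell. The part of such cells in these differences was not tested.

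**Figure D3:**
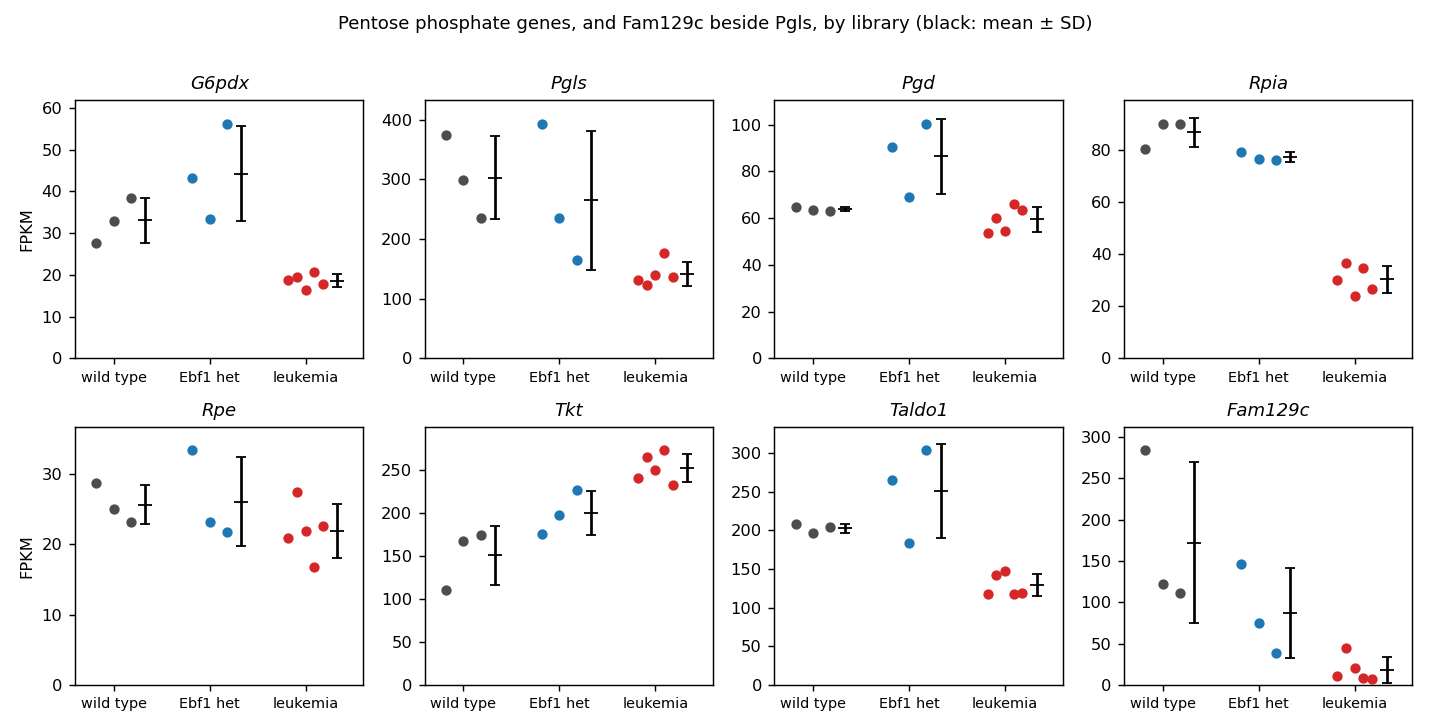
FPKM (y axes, each from 0) of the 7 pentose phosphate genes, and of Fam129c whose exons overlap those of Pgls, by library, with points in replicate order for wild type (3), Ebf1 heterozygous (Ebf1 het, 3) and leukemia (5) and black bars for the mean ± SD. The leukemias lie below all progenitor pools for G6pdx, Rpia and Taldo1 and above them for Tkt.

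All 3 genes of serine synthesis were higher in leukemia than in wild type (100%, against 20.7% of all genes). Phgdh (chromosome 3, 98313170 to 98339990), the dehydrogenase that takes 3-phosphoglycerate out of glycolysis, stood at 81.3, 127 and 105 FPKM in the wild-type pools, 111, 133 and 114 in the Ebf1 heterozygous pools and 287, 223, 249.5, 214 and 188 in the leukemias. The leukemias lay above all pools, and leukemia 1 was the highest. Phgdh rose against wild type (limma log2 fold change 1.16 with SE 0.17 and adjusted p = 0.000822, 2.23-fold). Psat1 (chromosome 19, 15904678 to 15947337), the aminotransferase of the next step, stood at 52.9, 77 and 59.2 FPKM in the wild-type pools, 76.4, 88.6 and 65.6 in the Ebf1 heterozygous pools and 105, 112, 131, 78.2 and 105 in the leukemias. Leukemia 4 was the lowest of its group, just above wild-type pool 2 and below Ebf1 heterozygous pool 2. Psat1 rose against wild type (limma log2 fold change 0.74 with SE 0.17 and adjusted p = 0.00804). Psph (chromosome 5, 129765558 to 129787449), the phosphatase that releases serine, stood at 11.8, 14.9 and 13.7 FPKM in the wild-type pools, 19.5, 16.7 and 13.2 in the Ebf1 heterozygous pools and 20.1, 20.8, 25.2, 21.5 and 20.5 in the leukemias. Its leukemia values exceeded those of every pool, by a small margin over Ebf1 heterozygous pool 1, and Psph rose against wild type (limma log2 fold change 0.65 with SE 0.11 and adjusted p = 0.00167). Exons of Psph overlap those of Cct6a on the opposite strand, and the part of Cct6a reads in the Psph values was not tested. The 3 steps differed in level, with Psph below Psat1 and Psat1 below Phgdh in all 11 libraries.

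Serine hydroxymethyltransferases pass a carbon of serine to folate, Shmt1 in the cytosol and Shmt2 in mitochondria, and both were higher in leukemia. Shmt1 (chromosome 11, 60788104 to 60811718) stood at 9.56, 17 and 12.8 FPKM in the wild-type pools, 17.7, 23.9 and 17.8 in the Ebf1 heterozygous pools and 67.4, 71.8, 48, 65.6 and 56.2 in the leukemias. The lowest leukemia was about as far above the highest pool as that pool was above 0. Shmt1 had the largest rise of the 35 members tested (limma log2 fold change 2.17 with SE 0.19 and adjusted p = 6.12e-05, 4.51-fold). Its exons overlap those of Smcr8 on the opposite strand, which was not called (limma adjusted p = 0.128). Shmt2 (chromosome 10, 127517123 to 127522444) stood at 31.2, 56.7 and 55.2 FPKM in the wild-type pools, 59.9, 63.1 and 62.9 in the Ebf1 heterozygous pools and 110.4, 119, 118, 112 and 113 in the leukemias. The 5 leukemias were nearly alike, with a coefficient of variation of 3.36%, and lay above every pool. Shmt2 rose against wild type (limma log2 fold change 1.29 with SE 0.18 and adjusted p = 0.000574, 2.45-fold). The sum of both was 60.8 ± 17.6 FPKM in wild type, 81.8 ± 4.76 in the Ebf1 heterozygous pools and 176 ± 9.39 among the leukemias, and the Shmt1 share of it was 23.4, 23 and 18.8% in the wild-type pools, 22.8, 27.5 and 22% in the Ebf1 heterozygous pools and 37.9, 37.7, 28.9, 37 and 33.1% in the leukemias.

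Of the 3 genes for enzymes that interconvert the carbon units on folate, none was called. Mthfd2 (chromosome 6, 83305691 to 83325908), the mitochondrial dehydrogenase and cyclohydrolase, stood at 29.2, 35.6 and 29.7 FPKM in the wild-type pools, 31.1, 33.2 and 25.4 in the Ebf1 heterozygous pools and 18.7, 31.8, 29.6, 18.9 and 32 in the leukemias. Leukemias 1 and 4 were the lowest of all libraries and the other 3 lay within the range of the pools, and Mthfd2 was not called (limma log2 fold change -0.29 with SE 0.21 and adjusted p = 0.277). Mthfd1, the cytosolic enzyme, stood at 23.7, 62.1 and 101 FPKM in the wild-type pools, 33.8, 60.2 and 96.2 in the Ebf1 heterozygous pools and 55.2, 73.5, 54.4, 59.6 and 57.7 in the leukemias. The pools spread more widely than the leukemias, with pool 1 lowest and pool 3 highest in both genotypes, as for the megakaryocyte and platelet marker sum. The B cell marker sum had the reverse order in both genotypes. Mthfd1 was not called (limma log2 fold change 0.17 with SE 0.37 and adjusted p = 0.74). Mthfd1l, the mitochondrial formate synthetase, averaged 29.1 ± 9.38 FPKM in wild type and 36.8 ± 6.47 in leukemia and was not called (limma adjusted p = 0.206). The sum of these 3 genes was 123 ± 47.6 FPKM in wild type, 123 ± 35.3 in the Ebf1 heterozygous pools and 123 ± 17.6 among the leukemias. The ratio of Shmt2 to Mthfd2 levels was 1.07, 1.59 and 1.86 in the wild-type pools, 1.93, 1.9 and 2.48 in the Ebf1 heterozygous pools and 5.89, 3.74, 4, 5.91 and 3.54 in the leukemias, with no overlap between leukemias and pools.

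**Figure D4:**
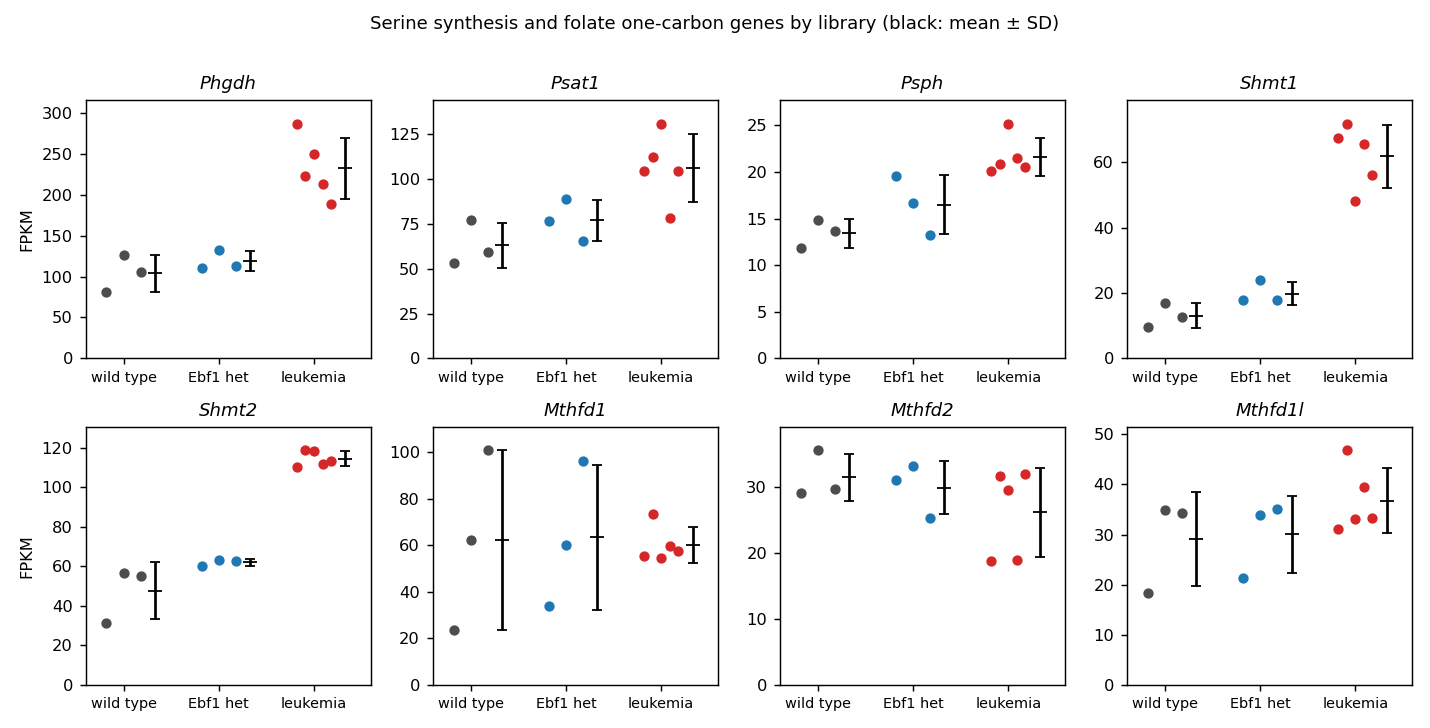
FPKM (y axes, each from 0) of the 3 serine synthesis genes and 5 folate genes by library, with points in replicate order for wild type (3), Ebf1 heterozygous (Ebf1 het, 3) and leukemia (5) and black bars for the mean ± SD. Phgdh, Psph, Shmt1 and Shmt2 are higher in every leukemia than in every progenitor pool, while Mthfd1, Mthfd2 and Mthfd1l overlap between the groups.

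**Figure D5:**
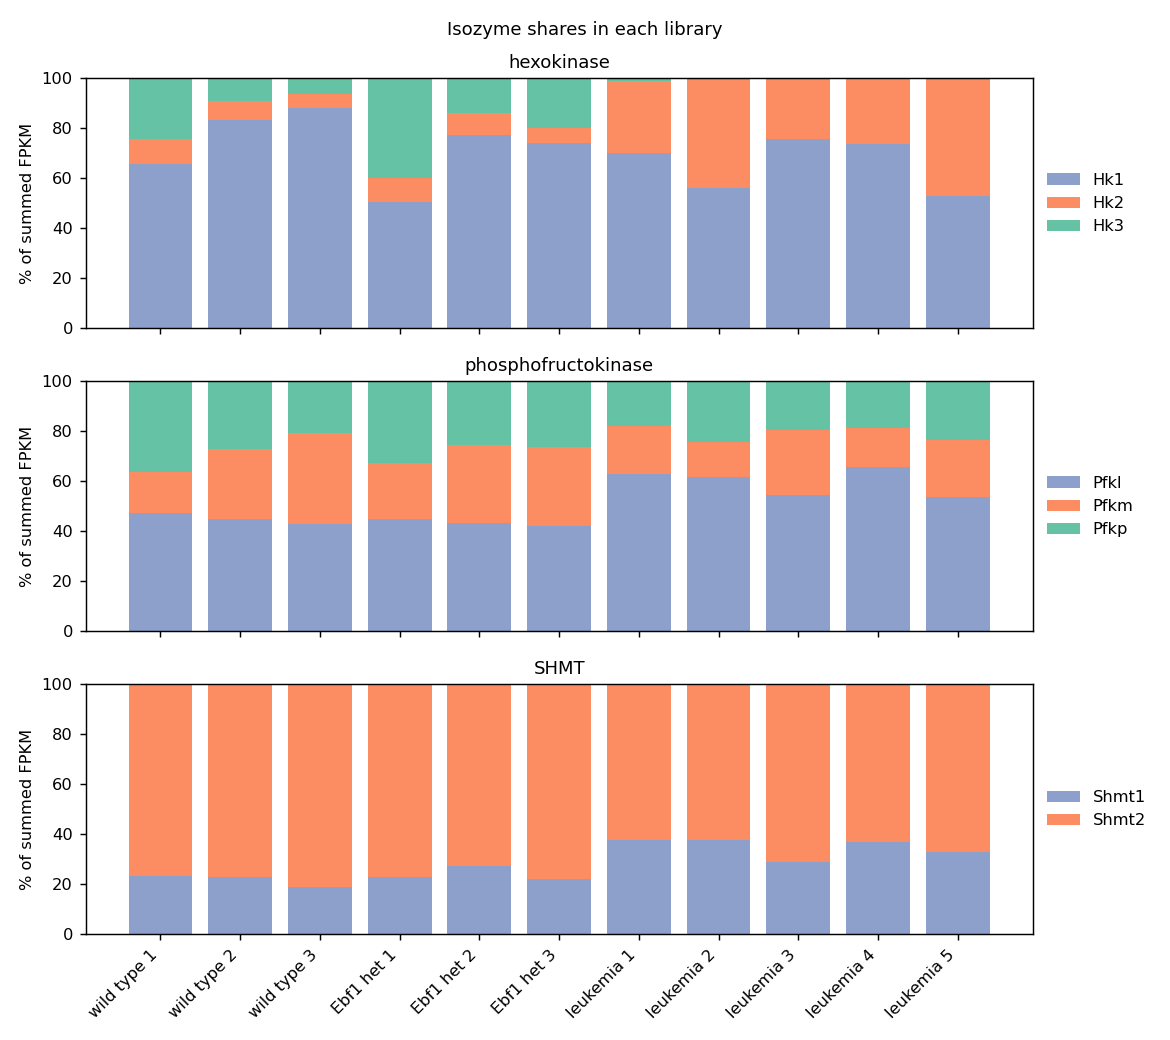
Share of each form in the summed FPKM of its enzyme family (y axes, percent), as stacked bars, 1 bar per library on the x axis (wild type, Ebf1 heterozygous as Ebf1 het, leukemia), for 3 hexokinases, 3 phosphofructokinases and 2 serine hydroxymethyltransferases (SHMT). The shares of Hk2, Pfkl and Shmt1 are larger in every leukemia than in every progenitor pool.

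Other genes of these pathways, from lists that did not pick members by how they moved, were read in leukemia against wild type beside the shares of all genes, 20.7% higher and 24.1% lower. Of 13 other glycolysis genes and regulators tested, 2 were higher (15.4%) and 4 lower (30.8%). Pklr, the pyruvate kinase of liver and erythroid cells, stood at 8.4, 31.7 and 64.2 FPKM in the wild-type pools, 13.1, 23.8 and 50.9 in the Ebf1 heterozygous pools and 0.042, 0, 0, 0 and 0 in the leukemias and fell (limma log2 fold change -4.75 with SE 0.50 and adjusted p = 0.000152). With 1 leukemia read in all, wild type held 6419 (95% interval 1151 to 253615) times as many Pklr reads relative to library totals. The order of its levels in the wild-type pools was that of the erythroid marker sum, which was 228, 623 and 1181 FPKM in the wild-type pools and 494, 476 and 1188 in the Ebf1 heterozygous pools. In the Ebf1 heterozygous pools these orders differed. The megakaryocyte and platelet marker sum given above had the order of Pklr in both sets of pools, and the B cell marker sum had the reverse order in both. The part of such cells in the Pklr difference was not tested. Pgam2, the muscle mutase, fell from 8.38 ± 1.05 to 1.45 ± 0.375 FPKM (limma log2 fold change -1.94 with SE 0.17 and adjusted p = 7.13e-05). Pgm2, whose symbol has been exchanged with that of Pgm1 between annotations so that its role is not given here, rose from 5.44 ± 0.853 to 17.1 ± 3.72 FPKM (limma log2 fold change 1.48 with SE 0.16 and adjusted p = 0.000197).

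Of 11 other genes of pyruvate entry into mitochondria, 1 was higher (9.09%) and 2 were lower (18.2%). Pdk2, a pyruvate dehydrogenase kinase like Pdk1, fell while Pdk1 rose, at 20.2, 12.7 and 15 FPKM in the wild-type pools, 12.8, 9.93 and 9.02 in the Ebf1 heterozygous pools and 1.82, 0, 1.03, 0.0342 and 0.463 in the leukemias (limma log2 fold change -3.44 with SE 0.35 and adjusted p = 0.000128). The phosphatase gene Pdp1, whose product reverses the kinases, rose from 2.31 ± 0.265 to 4.02 ± 0.295 FPKM (limma log2 fold change 0.60 with SE 0.13 and adjusted p = 0.0046). Pdhb, another pyruvate dehydrogenase subunit, fell from 91.7 ± 7.8 to 70.5 ± 5.54 FPKM (limma log2 fold change -0.38 with SE 0.10 and adjusted p = 0.0122). Of 4 other pentose phosphate genes tested, 2 were higher (50%) and 0 lower. Prps1 and Prps2, which make the activated ribose of nucleotide synthesis from the product of Rpia, were both higher, with means of 61.8 ± 10.4 and 70 ± 12.1 FPKM in leukemia and 41.7 ± 4.31 and 50.4 ± 4.39 in wild type. Limma adjusted p was 0.0116 for Prps1 and 0.032 for Prps2.

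Of 19 other one-carbon genes tested, 8 were higher (42.1%) and 1 was lower (5.26%). Gcsh, a protein of the mitochondrial glycine cleavage system, rose from 15.6 ± 5.93 to 45.8 ± 7.92 FPKM (limma log2 fold change 1.55 with SE 0.24 and adjusted p = 0.001). Atic, which uses formyl folate in the last steps of purine synthesis, rose from 57.6 ± 24.2 to 128 ± 3.51 FPKM (limma log2 fold change 1.24 with SE 0.25 and adjusted p = 0.00389). Tyms, the thymidylate synthase, rose from 17.6 ± 3.21 to 31.2 ± 4.06 FPKM (limma log2 fold change 0.80 with SE 0.14 and adjusted p = 0.00216). Of 8 sugar and lactate carriers tested, Slc2a6 was higher (12.5%), and Slc16a3, a lactate exporter, and the glucose transporter gene Slc2a8 were lower (25%). Slc16a3 fell from 2.72 ± 0.482 to 0.296 ± 0.0664 FPKM (limma log2 fold change -1.51 with SE 0.18 and adjusted p = 0.000267).

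A list for the response to low oxygen held genes that respond to it and also subunits of hypoxia-inducible factors. Of its 17 genes tested, 6 were higher (35.3%) and 4 lower (23.5%), the latter close to the share of all genes. Vegfa, the vascular growth factor, rose from 3.01 ± 0.561 to 16.6 ± 5.48 FPKM (limma log2 fold change 2.08 with SE 0.26 and adjusted p = 0.000359), whereas Mxi1, a repressor of the Myc network, fell from 13.3 ± 0.303 to 7.46 ± 0.584 (limma log2 fold change -0.76 with SE 0.10 and adjusted p = 0.000365). Arnt, the partner subunit of hypoxia-inducible factors, fell from 23.1 ± 0.587 to 14.1 ± 1.97 FPKM (limma log2 fold change -0.69 with SE 0.12 and adjusted p = 0.00173). Phgdh, Psat1, Shmt2 and Mthfd2 are known targets of the amino acid response factor Atf4, and of 12 genes listed for that response 3 were higher (25%) and 5 lower (41.7%). Trib3, one of its targets, rose from 1.32 ± 0.114 to 11.6 ± 4.3 FPKM (limma log2 fold change 2.38 with SE 0.26 and adjusted p = 0.000193). Asns, the asparagine synthetase and another target, stood at 6.6, 26.8 and 51.9 FPKM in the wild-type pools, 16.2, 19 and 41.1 in the Ebf1 heterozygous pools and 0.427, 0, 0.0837, 0.0401 and 0 in the leukemias. Its leukemia values were at or near 0, with 10 reads over 5 libraries, and it fell (limma log2 fold change -4.35 with SE 0.52 and adjusted p = 0.00027). Wild type held 360.5 (95% interval 196 to 753) times as many Asns reads relative to library totals. Within the wild-type pools Asns also had the order of the erythroid marker sum, but not within the Ebf1 heterozygous pools. It had the order of the megakaryocyte and platelet marker sum within both sets of pools, and the reverse of the order of the B cell marker sum. These relations were not tested.

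Against wild type, no member was called in the Ebf1 heterozygous pools, as no gene was (0.0% of 11167 tested). The smallest adjusted p of a member by limma was 0.468, for Gpi1, and voom on recovered reads also called 0. At an unadjusted p under 0.05 there were 8 members of 35 by either tool, against 7.73% of all genes by limma. With the replicate number as a block there were 15 members. The share of all genes under that block is not given here, so the 15 cannot be set against the 7.73%. Fold changes were above 0 for 30 of 35 members and 54.0% of all genes, with medians of 0.33 and 0.029. Under quantile scaling they were above 0 for 29 members and 46.9% of all genes, with medians of 0.28 and -0.021. The groups did not overlap for 15 members (14 higher and 1 lower, Rpia), or 42.9%, against 15.6% of all genes, of which 7.53% were higher and 8.11% lower. Log2 fold changes of the 4 members with the smallest p were 0.48 for Gpi1, 0.68 for Gapdh, 1.34 for Hk3 and 0.66 for Pkm. The granulocyte marker sums of these pools were 3433, 1820.0 and 629.8 FPKM in the wild-type pools and 10716, 2734 and 4028 in the Ebf1 heterozygous pools. They were higher in the Ebf1 heterozygous pools apart from the overlap of wild-type pool 1 with their lowest. The T and NK cell marker sums given above were higher in every Ebf1 heterozygous pool than in every wild-type pool. The part of any of these cells in the member values was not tested. The alignment tools listed by the submitters also differ here, and any effect of them cannot be told apart from genotype.

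Against the Ebf1 heterozygous pools, 16 members were called (45.7% of 35, against 21.6% of 11161 genes), of which 7 were higher in leukemia (20% of the members, against 9.31% of all genes) and 9 were lower (25.7%, against 12.3%). The median log2 fold change was 0.04, and -0.025 over all genes. Under quantile scaling the latter became 0.079, and the split over all genes went from 1039 higher and 1370 lower to 1566 higher and 1119 lower, while members were split into 8 higher and 8 lower. Higher were Pgk1, Pgam1, Ldha, Pdk1, Phgdh, Shmt1 and Shmt2, and lower were Hk1, Hk3, Pfkp, Ldhb and 5 of the 7 pentose phosphate genes: G6pdx, Pgls, Pgd, Rpia and Taldo1. Shmt1 had the largest rise (limma log2 fold change 1.59 with SE 0.16 and adjusted p = 0.000334), followed by Pdk1 (limma log2 fold change 1.26 with SE 0.17 and adjusted p = 0.00155). Rpia (limma log2 fold change -1.34 with SE 0.15 and adjusted p = 0.000485) and G6pdx (limma log2 fold change -1.18 with SE 0.17 and adjusted p = 0.00166) fell most among pentose phosphate genes. Of the other rises, Phgdh had a log2 fold change of 0.95 (limma adjusted p = 0.0031) and Shmt2 one of 0.88 (0.000376).

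This comparison leaned more on single libraries (limma adjusted p in parentheses). The Pgk1 call was lost without Ebf1 heterozygous pool 2 (0.061) or leukemia 3 (0.0502), that of Pgam1 without Ebf1 heterozygous pool 2 (0.0629), and that of Ldha without Ebf1 heterozygous pool 1 (0.0501), Ebf1 heterozygous pool 2 (0.0738), leukemia 2 (0.058), leukemia 3 (0.06) or leukemia 5 (0.052). Hk1 was no longer called without Ebf1 heterozygous pool 2 (0.0546), and Pgd without Ebf1 heterozygous pool 1 (0.0623), Ebf1 heterozygous pool 3 (0.105), leukemia 1 (0.0695), leukemia 2 (0.0604) or leukemia 3 (0.0711). Pfkp lost its call without Ebf1 heterozygous pool 2 (0.0549), Ebf1 heterozygous pool 3 (0.119), leukemia 1 (0.0793), leukemia 2 (0.0616), leukemia 3 (0.0774) or leukemia 4 (0.0708). Pgls lost it without Ebf1 heterozygous pool 1 (0.0821), Ebf1 heterozygous pool 2 (0.0908), leukemia 1 (0.088), leukemia 2 (0.0945), leukemia 3 (0.0844) or leukemia 5 (0.0778). Conversely, Pfkm passed as lower without Ebf1 heterozygous pool 1 (0.0362), Tkt as higher without Ebf1 heterozygous pool 3 (0.0496), Psph without Ebf1 heterozygous pool 1 (0.0293) and Psat1 without leukemia 4 (0.0362). Without Ebf1 heterozygous pool 2 the number of members called higher was 4. Both comparisons of leukemia share the leukemia libraries, and this one shares the Ebf1 heterozygous pools with the comparison to wild type, so their fold changes are not independent.

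By their means, the Ebf1 heterozygous pools lay between wild type and leukemia for 15 of the 16 genes called higher in leukemia against wild type, and beyond leukemia for 1, Gapdh. For the 9 genes called lower they lay between for 3 and beyond wild type for 6. These positions describe means of 3 libraries and were not tested. The spread between libraries also differed by group: the median coefficient of variation of the members was 19.8% in wild type, 19.6% in Ebf1 heterozygous pools and 14.3% in leukemia, against 14.0%, 23.0% and 14.9% over all genes. Wild-type pool 1 was the lowest of its group for 24 of 35 members, and Ebf1 heterozygous pool 3 was the highest of its group for 21.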

How the data were processed

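RNA of 3 wild-type, 3 Ebf1 heterozygous and 5 leukemia samples was sequenced and grouped by the genotype and sample type in the labels. The FPKM values were computed by the authors and deposited as 1 table, in which every value column had a sample. The submitters' processing notes list BWA 0.7.12 for wild type and leukemia but TopHat2 and Cufflinks for the Ebf1 heterozygous samples, all with mm10 (GRCm38). The counting tool, its strand setting and the annotation were not given in the sources used here, so reads of overlapping genes cannot be told apart. Besides the overlaps named above, exons of other genes overlap those of Hk1, Hk3, Gpi1, Pfkm, Pfkp, Aldoa, Tpi1 and Gapdh. The same holds for Pkm, Pdha1, Rpe, Tkt, Shmt2 and Mthfd1. The part of these overlaps in the values was not tested. A gene length and library totals that turn FPKM into whole reads (tolerance 0.001 read) were found for 17378 of 17380 genes (99.99%), giving totals of 8506680 to 15313920 reads per library. Ratios of these reads have exact conditional binomial intervals at 95%, for counting error only, since PCR copies carried no molecular identifiers.

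Log2(FPKM + 1) values were tested two-sided with limma 3.58.1 (R 4.3.3) using moderated variances with a trend, within the groups compared, above a mean of 1 FPKM, with Benjamini-Hochberg adjustment over all genes tested and a threshold of 0.05. The procedure was tried on simulated reads, drawn independently for each library with the same spread setting for every gene. Such reads lack the deviations shared by same-numbered pools, so they do not show how the tests behave under those. The outcome is not given here. Python 3.11.15 with NumPy 2.4.6, pandas 2.3.3 and, for figures, Matplotlib 3.10.9 made the tables. Positions are from GENCODE M21, and RefSeq upstream windows were matched for 38 of 38 members. The members and lists were chosen with earlier results of these data known. By the rule for named genes, values in every library are given for members called with at least a 1.5-fold change and for Hk1, Hk2, Hk3, Pfkl, Pfkp, Pkm, Ldha, G6pdx, Phgdh, Shmt2 and Mthfd2, and up to 3 called genes of smallest p are named in each other list. Values by library for Eno1b, Fam129c, Mthfd1, Pklr, Pdk2 and Asns, and read counts for Eno1 and Eno2, were added after they were seen.

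Same-numbered wild-type and Ebf1 heterozygous pools deviated together from their group means (correlations across genes 0.64, 0.32 and 0.7), although no label states a pairing. The main tests ignored the replicate number, which entered only as a block in an alternative. Alternatives were a pseudocount of 0.1, no filter, a minimum of 5 FPKM, median-ratio or quantile scaling, a joint model of all groups, a replicate block, voom on recovered reads and leaving out each library.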

Additional observations from a re-analysis of the deposited data

Results flagged for a closer look

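Among 35 members tested in the group of 5 leukemias, 3 had a library that stood apart from the others by Dixon's criterion, which chance alone meets in about 1 in 20 groups. Leukemia 2 was high for Pgk1, at 261.9 FPKM, while the other leukemias lay between 195 and 212 FPKM. Leukemia 5 was low for Eno3, at 3.39 FPKM against 5.93 to 7.33 in the others. Leukemia 3 was high for Ldhb, at 0.185 FPKM against 0.0535 to 0.0901 in the others, a value that rests on 3 reads.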

How the results depend on the processing

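In leukemia against wild type, the number of members called higher was 14 to 17 and the number called lower 7 to 9 over all alternatives, and 14 to 17 and 7 to 9 when each library was left out in turn. Of the calls, 13 of 16 higher and 7 of 9 lower held under every alternative in which they were tested, with Hk2, Pfkl, Tpi1, Pfkp and Pfkfb3 as the exceptions. Hk3 and Ldhb were not tested with the minimum of 5 FPKM, nor was Ldhb without wild-type pool 3. In Ebf1 heterozygous against wild type the count was 0 in each direction throughout, the replicate block and left-out libraries included. In leukemia against Ebf1 heterozygous pools, the count higher went from 7 to 4 and the count lower from 9 to 4 with the replicate block. That block fits a term for each replicate number. Leukemias 4 and 5, which share their number with no pool, then do not enter the fold changes. The part of this in the calls lost in this comparison was not tested. There the numbers do not pair the samples: deviations of same-numbered libraries correlated at 0.03, 0.05 and -0.11, and at -0.05, 0.07 and -0.14 for leukemia and wild type. Leaving out single libraries gave 4 to 8 members higher, the lowest without Ebf1 heterozygous pool 2, and 6 to 8 lower. Calls of Pdk1, Phgdh, Shmt1, Shmt2, Hk3, Ldhb, G6pdx and Rpia held there under every alternative in which they were tested (Ldhb was not tested with the minimum of 5 FPKM), and those of the other 8 did not. Among these 8, Taldo1 lost its call under the replicate block only (limma adjusted p = 0.0691). Over all single-gene results, 1517 alternative values stayed on their side of the threshold, 71 lost a call, 14 gained one and 0 changed sign after a call. Precision is limited by 3 to 5 libraries a group and, for Hk3, Ldhb, Eno1, Eno2 and Asns, by a few reads per library.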
